A study of Mus musculus with 35 samples.

Results

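The livers of 5 mice injected with SP70, silica particles of the middle size of 3 in the study, at 10 mg/kg were compared with those of 5 mice injected with water. All arrays labelled as one or the other group were taken, which is 10 of the 35 arrays of the study, and every gene with a probe set of its own that passed a filter on low signal was described, which is 12678 genes. The mice were BALB/c. The control group received deionized water at 0.1 ml per 10 g of body weight, and the treated group received SP70 at 10 mg/kg, both into a vein. A piece of the left lateral lobe was frozen 6 h later, and its RNA was read on 1 array per mouse. The labels give no age and no sex. They call the arrays biological replicates and say that mice were assigned at random. The other groups of 5 used below, each at 6 h, received SP300 at 10 mg/kg (larger particles), SP30 at 10 mg/kg (smaller particles) or SP70 at 20 mg/kg.

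Particles that enter the blood are cleared mainly by the liver, where Kupffer cells, its resident macrophages, line the sinusoids together with a fenestrated endothelium and take them up. Macrophages that sense damage or foreign material switch on the transcription factor NF-kB, which drives the genes of chemokines and cytokines. Chemokines draw neutrophils and monocytes from the blood. Interleukin 1 and interleukin 6 then act on hepatocytes, which answer through STAT3 and C/EBP factors with the acute phase response, a rise of plasma proteins such as serum amyloid A. Interferons act on a separate set of genes.

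Of the 12678 genes, 1578 (12.4%) were higher after SP70 and 721 (5.69%) were lower at an adjusted p under 0.05. In all 2299 (18.1%) passed. A change is given as the log2 of the signal plus 12.5, SP70 minus control, with the standard error (SE) of a limma fit and n = 5 mice per group. Changes were larger upwards than downwards. At least 2-fold changes were found for 454 (3.58%) higher and 106 (0.836%) lower genes, at least 4-fold for 128 and 12, and at least 8-fold for 46 and 0. The median change of all genes was 0.01, of the genes called higher 0.64 and of those called lower -0.54. Every treated mouse lay above every control mouse for 1127 genes (8.89%), of which 1030 (8.12% of all) were called higher, and below for 434 (3.42%), of which 327 (2.58% of all) were called lower. How many genes are called lower depends on the scaling of the arrays. With quantile normalization 1314 (10.4%) were higher and 1407 (11.1%) lower, with the 721 reported here among the latter, and the median of all genes moved to -0.07. With arrays centred on their medians 1264 (9.97%) were higher and 773 (6.1%) lower.

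**Figure D1:**
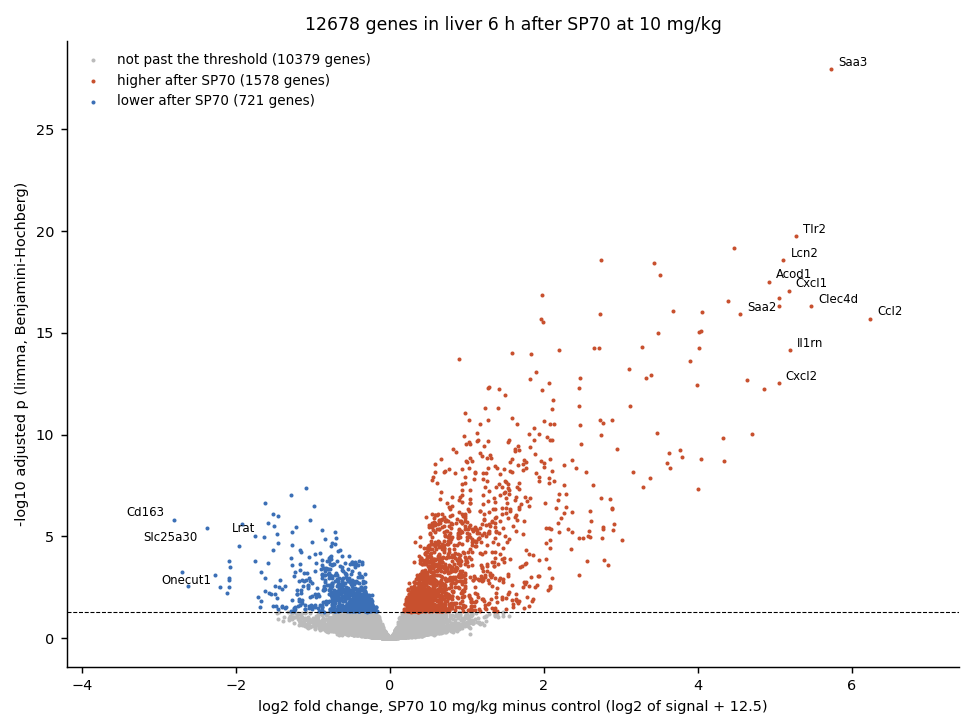
Each point is 1 of 12678 genes. The x axis gives the log2 fold change after SP70 at 10 mg/kg and the y axis the -log10 of the adjusted p. The dashed line marks an adjusted p of 0.05. The 1578 genes called higher reach a log2 change of 6.24 (Ccl2), and the 721 called lower reach -2.81 (Cd163).

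The arrays of both groups were alike in scale, with medians of 148.8 to 176.5 in control mice and 157.1 to 176.7 after SP70. No pair of arrays was identical. Across genes, arrays correlated at 0.959 to 0.966 within the control group, at 0.957 to 0.969 within the SP70 group and at 0.931 to 0.954 between them. For many genes with a low signal a fold is given beside the log2 change. It was computed without the added 12.5 from signals raised to 165, the median of all values. Some log2 changes given without a fold, such as those of Tnfaip3, Csf3r, Sox9, Bank1 and Mpp4, also rest in part on signals under 165. With any mouse of the lower group under 165, the fold is a bound and is given as at least that size. All 5 control mice lay under 165 for 107 genes called higher, and all 5 treated mice for 15 genes called lower, so that only such a bound is known for them, and their log2 changes, which rest on signals under 165, are no measure of size. Of the genes tested, 134 passed the filter only with the help of the arrays of the SP70 group, and 7 of these were called higher.

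The promoters of 6 genes that rose are shown because they hold letters to which NF-kB, interferon-driven and C/EBP factors are known to bind. The sequences are RefSeq's, build GRCm38.p6, the 150 bases before the annotated start, 5′ to 3′ on the strand of the gene. Capitals mark matches, on either strand, to GGANTTTCC (kB), AAANNGAAA (ISRE, the interferon-stimulated response element), TTCNNNGAA (GAS, bound by STAT factors), TGANTCA (AP-1) or TTGCNNAA (C/EBP). Cxcl1 lies at chr5:90891095-90891244 on the + strand, Cxcl2 at chr5:90903749-90903898 on the + strand and Acod1 at chr14:103046862-103047011 on the + strand. Calhm6 lies at chr10:34127973-34128122 on the - strand, Gbp2 at chr3:142620513-142620662 on the + strand and Saa3 at chr7:46715677-46715826 on the - strand.
Cxcl1: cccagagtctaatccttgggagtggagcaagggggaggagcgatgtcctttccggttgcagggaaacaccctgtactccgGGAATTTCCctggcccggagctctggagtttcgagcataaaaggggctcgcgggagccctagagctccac
Cxcl2: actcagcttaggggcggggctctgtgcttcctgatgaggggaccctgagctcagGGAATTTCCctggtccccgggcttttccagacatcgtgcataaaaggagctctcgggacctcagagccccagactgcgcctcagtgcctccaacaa
Acod1: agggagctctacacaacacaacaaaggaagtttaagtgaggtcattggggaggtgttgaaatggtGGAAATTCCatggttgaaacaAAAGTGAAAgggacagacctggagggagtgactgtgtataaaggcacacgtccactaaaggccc
Calhm6: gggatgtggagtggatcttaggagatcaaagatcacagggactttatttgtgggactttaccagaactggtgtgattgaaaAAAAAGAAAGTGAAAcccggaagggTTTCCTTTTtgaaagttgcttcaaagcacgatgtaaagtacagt
Gbp2: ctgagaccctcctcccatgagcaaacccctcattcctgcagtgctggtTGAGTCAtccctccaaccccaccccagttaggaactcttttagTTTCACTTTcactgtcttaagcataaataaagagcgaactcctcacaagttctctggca
Saa3: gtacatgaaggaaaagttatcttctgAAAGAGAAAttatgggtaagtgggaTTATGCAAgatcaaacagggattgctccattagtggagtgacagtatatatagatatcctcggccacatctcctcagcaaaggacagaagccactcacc

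The neutrophil chemokine genes Cxcl1 and Cxcl2 each hold the same kB letters, beginning at -70 and -96 from the start. Acod1, which makes itaconate in macrophages, holds kB letters at -85 and ISRE letters at -64. Calhm6, an ion channel gene of activated macrophages, holds 3 ISRE matches, of which 2 overlap, at -69, -63 and -44. In Gbp2, a GTPase gene driven by interferons, an AP-1 match lies at -102 and an ISRE match at -59. Saa3 holds an ISRE match at -124 and a C/EBP match at -99.

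Over all windows of 250 bases before a start, kB letters were found in 4.55% of 440 promoters of genes called and at least 2-fold higher, 2.14% of 1589 promoters of all genes called higher, 1.13% of 799 of genes called lower and 1.09% of 13084 of all genes tested. The ISRE letters were in 15.5%, 8.37%, 5.63% and 7.23% of these promoters, in the same order. The AP-1 letters were in 11.4%, 6.36%, 4.76% and 4.94%, the GAS letters in 10.5%, 7.93%, 5.76% and 6.0%, and the C/EBP letters in 10.9%, 9.19%, 6.63% and 8.02%. For each of the 5 motifs the share was highest in the promoters of genes at least 2-fold higher. These shares are descriptions, since a gene can have several promoters, and a match is not evidence of binding. RefSeq's table held promoters of 13 of the 15 genes with the highest changes, and 3 of these had kB letters.

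The genes with the highest changes coded for chemokines, receptors of macrophages and neutrophils, and acute phase proteins. They were Ccl2, Saa3, Clec4d, Tlr2, Il1rn, Cxcl1, Lcn2, Calhm6, Ccl3, Cxcl2, Acod1, Clec4e, Chil3, Hcar2 and Saa2, with log2 changes from 4.55 to 6.24. In each of the 15 every treated mouse lay above every control mouse, which the rule for naming them asked for. In 8 of them, Ccl2, Clec4d, Ccl3, Cxcl2, Acod1, Clec4e, Chil3 and Hcar2, all control mice lay under a signal of 165, so that their place in this order depends on the added 12.5.

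**Figure D2:**
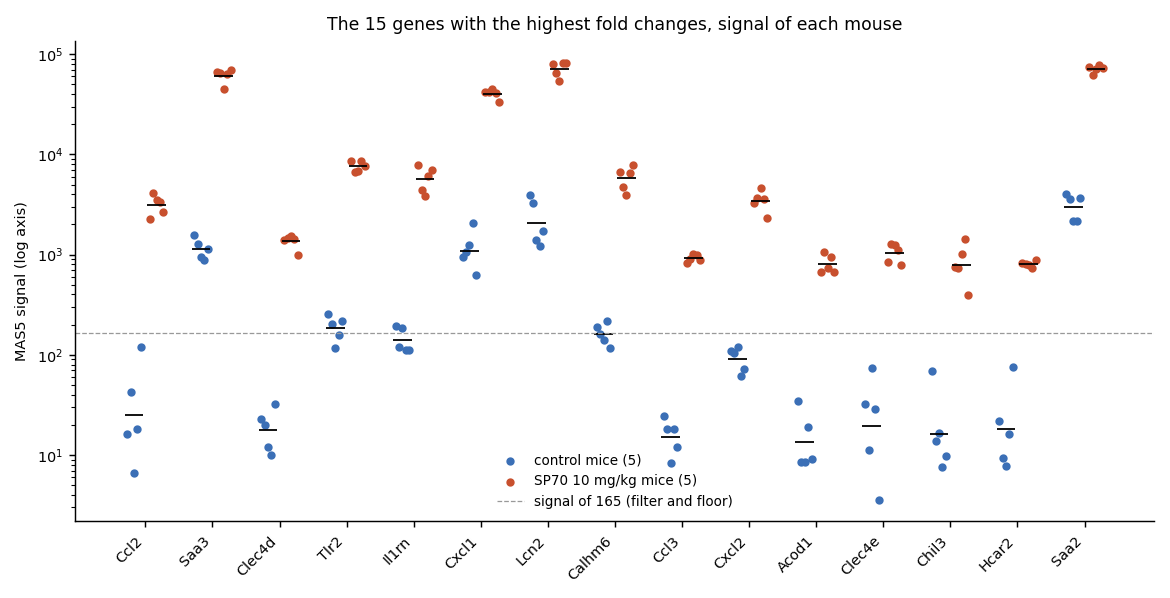
The MAS5 signal of each mouse, on a log axis, for the 15 genes with the highest log2 fold changes. Blue points are the 5 control mice and orange points the 5 mice given SP70 at 10 mg/kg. Black lines are geometric means and the dashed line is a signal of 165. No orange point of a gene lies at or under a blue one of the same gene.

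Chemokines for neutrophils were called higher in all their tested forms, 1 of them, Cxcl3, on low signals. 6 of the 7 genes of this list were measured, 6 rose and 0 fell, with a median change of 2.90, against 12.4% of all genes. Cxcl1 read 946, 1050, 1240, 2050 and 632 in control mice and 41458, 41971, 44818, 40863 and 33293 after SP70. Cxcl2 read 108, 104, 121, 62 and 72.5 in control mice and 3258, 3668, 4621, 3627 and 2326 after SP70. No control mouse reached a treated one in either gene, the control mice were under 165 for Cxcl2 only, and the lowest treated signal of Cxcl1 was that of mouse 5, as for Cxcl2. Cxcl1 rose 36.7-fold (5.18 ± 0.25, adjusted p = 8.58e-18) and Cxcl2 at least 20.7-fold (5.05 ± 0.36). Cxcl5, which hepatocytes and stroma can also make, rose at least 3.48-fold (4.04 ± 0.41) and Cxcl3 at least 1.06-fold (1.33 ± 0.45). The platelet chemokine Ppbp rose by 0.75 ± 0.21, and the receptor of these ligands, Cxcr2, at least 1.49-fold (1.76 ± 0.41). For Cxcl3, 4 of the mice given SP70 lay under 165, and the call was lost without control mouse 4 (0.83).

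Chemokines for monocytes and lymphocytes rose in part. In the CC family 7 of 13 rose and 0 fell (median 1.27). Ccl2, which draws monocytes out of the marrow and into tissue, read 16.1, 42.6, 6.56, 18.3 and 119 in control mice and 2249, 4135, 3515, 3366 and 2665 after SP70. The control mice were all under 165 and the treated mice were within a 2-fold range of each other. The rise was at least 18.9-fold (6.24 ± 0.34, adjusted p = 2.08e-16). Ccl20, a ligand of CCR6, rose at least 3.68-fold (4.34 ± 0.45), and the macrophage inflammatory protein genes rose, Ccl3 at least 5.58-fold (5.05 ± 0.25) and Ccl4 by 2.11 ± 0.17. Ccl7 (at least 2.52-fold, 2.22 ± 0.31), Ccl5 (1.65 ± 0.23) and Ccl9 (1.27 ± 0.11) also rose. Ccl8 (0.12 ± 0.33), Ccl24 (0.13 ± 0.44), Ccl17 (0.76 ± 0.52) and Ccl25 (-0.11 ± 0.15) did not pass the threshold. Among other chemokines 4 of 9 rose and 1 fell. The interferon-driven ligands of CXCR3 rose, Cxcl9 by 4.05 ± 0.22, Cxcl10 by 3.77 ± 0.37 and Cxcl11 by 1.73 ± 0.27, as did the scavenger-like chemokine Cxcl16 (1.06 ± 0.17). Cxcl12, which holds cells in the marrow and in resting tissue, fell (-0.39 ± 0.12).

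Cytokine genes rose together with genes of their inhibitors. Of the interleukin 1 family and its receptors 9 of 13 rose and 0 fell. Il1b, the main secreted form, read 402, 300, 352, 306 and 403 in control mice and 1445, 1786, 1512, 1553 and 1349 after SP70. Il1rn, which codes for the antagonist that blocks the interleukin 1 receptor, read 195, 121, 187, 111 and 112 in control mice and 7785, 4435, 3808, 6108 and 7040 after SP70. Neither gene's groups overlapped, and the treated mice 2 and 3 had the lowest Il1rn. Il1rn rose at least 32.2-fold (5.20 ± 0.33) and Il1b by 2.08 ± 0.18, while Il1a stood at 0.31 ± 0.35 and did not pass. The signalling receptor Il1r1 (2.13 ± 0.24) and the decoy receptor Il1r2 (1.30 ± 0.27) both rose, as did the alarmin Il33 (1.02 ± 0.28), the epithelial cytokine Il1f9 (2.26 ± 0.31) and the interleukin 18 receptor chains Il18r1 (at least 1.02-fold, 1.24 ± 0.39) and Il18rap (at least 1.19-fold, 1.88 ± 0.46).

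In the interleukin 6 axis the ligand was not measured above the filter, but the receptors and the signal chain were. Of this list 9 of 16 rose and 1 fell. The shared receptor Il6st (1.07 ± 0.19), the oncostatin M receptor Osmr (1.73 ± 0.19), the kinase Jak2 (0.77 ± 0.12) and Stat3 (1.07 ± 0.11) rose, as did Socs3, the feedback inhibitor (2.09 ± 0.31), and the NF-kB cofactor Bcl3 (2.88 ± 0.24). Cish, a feedback gene of STAT5, fell (-1.12 ± 0.26). Of the TNF family 7 of 12 rose and 0 fell. Tnf itself read 31.2, 97.3, 26.3, 34.4 and 13.6 in control mice and 269, 217, 291, 306 and 289 after SP70. Its signals were low in both groups, yet no control mouse reached the lowest treated one, and the rise was at least 1.65-fold (2.60 ± 0.35). Ltb (2.73 ± 0.23), the death receptor Fas (1.56 ± 0.17) and the TNF receptor Tnfrsf1b (0.55 ± 0.11) rose as well. Of the colony stimulating factors and other growth cytokines with their receptors 8 of 16 rose and 0 fell, among them Csf1 (1.87 ± 0.17), which sustains macrophages, the G-CSF receptor Csf3r (2.77 ± 0.41) and the interferon gamma receptor chain Ifngr2 (1.73 ± 0.18).

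Most genes of the NF-kB pathway rose, inhibitors and subunits alike. Of 19 tested 15 rose and 0 fell, with a median of 1.17, and in 14 of them, all but Tank, the treated and control mice did not overlap (8.12% of all genes were called higher without overlap). Ikbke, a kinase that also acts in the interferon pathway, read 542, 630, 585, 578 and 560 in control mice and 13597, 11051, 10875, 18633 and 12707 after SP70. Tnfaip3, the A20 protein that shuts the pathway down by editing ubiquitin chains, read 160, 332, 106, 212 and 229 in control mice and 2366, 2820, 5323, 4869 and 2182 after SP70. The treated signals lay far above control for both, and those of Tnfaip3 were spread over more than 2-fold. The changes were 4.47 ± 0.18 for Ikbke and 3.99 ± 0.29 for Tnfaip3, another probe set of which did not pass (1.49 ± 0.55). The inhibitors Nfkbia (1.17 ± 0.11), Nfkbib (1.27 ± 0.09), Nfkbie (2.73 ± 0.15) and Nfkbiz (3.12 ± 0.25) rose, and so did the subunits Rela (0.99 ± 0.09), Relb (2.36 ± 0.24), Rel (at least 1.24-fold, 1.03 ± 0.36) and Nfkb2 (1.86 ± 0.34). The kinase subunits Ikbkb (0.16 ± 0.08) and Ikbkg (0.13 ± 0.11) did not pass. The kinase Map3k14 did not pass by its brightest probe set (0.06 ± 0.38) and rose by another (1.36 ± 0.43).

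Receptors that sense microbes and damaged cells rose in part. Of the Toll-like receptors and their adaptors 10 of 17 rose and 0 fell. Tlr2, the receptor of lipoproteins, read 254, 205, 117, 157 and 220 in control mice and 8621, 6719, 6758, 8541 and 7653 after SP70. Its co-receptor Cd14 read 375, 486, 252, 421 and 386 in control mice and 9076, 4629, 2625, 6537 and 9125 after SP70. The groups of both genes were far apart, and the treated mice differed among themselves by less than 2-fold in Tlr2. Tlr2 rose at least 38.2-fold (5.27 ± 0.20) and Cd14 15.5-fold (3.90 ± 0.26). The decoy kinase Irak3, which damps the signal, rose at least 4.09-fold (3.62 ± 0.36) and the adaptor Myd88 by 1.23 ± 0.10. Tlr4, the receptor of endotoxin, stood at -0.02 ± 0.22, Tlr3 at 0.28 ± 0.21 and Tlr9 at -0.04 ± 0.52, none of which passed.

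Among the lectin and formyl peptide receptors of myeloid cells 9 of 11 rose and 0 fell. Clec4d and Clec4e, a receptor pair that senses mycobacterial lipids and dead cells, were under 165 in every control mouse and rose at least 8.2-fold (5.47 ± 0.28) and at least 6.28-fold (4.86 ± 0.36). Clec5a (at least 1.27-fold, 2.76 ± 0.44), Clec7a, the glucan receptor dectin-1 (1.46 ± 0.20), Fpr2 (2.04 ± 0.19) and Trem1 (at least 1.84-fold, 1.51 ± 0.20) rose. Of the inflammasome and cytosolic sensor genes 6 of 13 rose and 0 fell. Casp4, which senses endotoxin inside the cell, rose by 2.00 ± 0.21, the pore protein Gsdmd by 0.98 ± 0.11, the adaptor Pycard by 0.74 ± 0.26 and the nucleic acid sensor Zbp1 by 1.42 ± 0.22. Nlrp3 (0.97 ± 0.39) and Casp1 (0.27 ± 0.32) did not pass.

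Of the enzymes of itaconate, nitric oxide, superoxide and prostaglandins 9 of 15 rose and 0 fell. Acod1, whose promoter is printed above, read 34.6, 8.57, 8.5, 19.2 and 9.08 in control mice and 677, 1053, 729, 955 and 671 after SP70. All control signals lay far under 165, so the rise of 4.92 ± 0.23 is known only as at least 4.87-fold. The NADPH oxidase genes Cybb (0.91 ± 0.17), Cyba (1.21 ± 0.15), Ncf1 (1.09 ± 0.18) and Ncf4 (1.46 ± 0.19), Ptgs2, which is COX-2 (at least 1.06-fold, 2.56 ± 0.49), Alox5ap (1.58 ± 0.16) and Arg2 (2.01 ± 0.26) rose. Arg1, the arginase of the urea cycle, stood at -0.01 ± 0.06 and did not pass. The inducible synthase Nos2 did not reach the filter. Hcar2, a receptor for ketone bodies and niacin found on macrophages and neutrophils, rose at least 4.89-fold (4.64 ± 0.33).

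Interferon response genes rose, and the median change was largest among guanylate binding proteins. Of the guanylate binding proteins and the related IRG GTPases, which attack microbes inside vacuoles, 10 of 11 rose and 0 fell, with a median of 2.00. Gbp2 read 247, 292, 226, 165 and 228 in control mice and 6671, 3703, 3198, 6443 and 6285 after SP70. Treated mice 2 and 3 were the lowest of their group, and far above the highest control mouse. The changes were 4.39 ± 0.22 for Gbp2, 3.48 ± 0.20 for Gbp2b, 3.27 ± 0.20 for Gbp6, 2.77 ± 0.24 for Gbp3 and 2.65 ± 0.16 for Ifi47. Members of this family are close in sequence, so probe sets may read more than 1 of them.

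Of the type I interferon response genes 16 of 25 rose and 0 fell (median 0.78). Ifit1, which binds foreign RNA, read 745, 565, 680, 968 and 612 in control mice and 3936, 3761, 3820, 3576 and 4764 after SP70. The groups stood apart, and the change was 2.47 ± 0.21. Rsad2, the antiviral enzyme viperin (2.11 ± 0.23), Ifit2 (2.03 ± 0.38), Usp18, which removes ISG15 (1.78 ± 0.23), Rtp4 (1.62 ± 0.16) and Isg20 (1.56 ± 0.16) rose. The list did not move as a whole, since Oas2 (-0.22 ± 0.40), Oasl2 (0.07 ± 0.28) and Bst2 (0.12 ± 0.11) did not pass. Of the interferon regulatory factors 6 of 7 rose and 0 fell, with Irf8 (1.43 ± 0.18), Irf5 (0.84 ± 0.18), Irf1 (0.88 ± 0.22), Irf7 (0.78 ± 0.12), Irf9 (0.73 ± 0.14) and Irf2 (0.60 ± 0.14) higher and Irf3 at 0.18 ± 0.09. Slfn4 (4.33 ± 0.40) and Plscr1 (3.43 ± 0.15), interferon-driven genes outside these lists, rose too and were singled out after their values were seen.

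Antigen presentation genes were called in both classes, though only 2 in class II. In class I processing 11 of 16 rose and 0 fell, with Tapbpl (1.40 ± 0.11), the peptide transporters Tap1 (1.38 ± 0.16) and Tap2 (1.17 ± 0.10), and the immunoproteasome subunits Psmb9 (1.27 ± 0.16), Psmb10 (1.14 ± 0.10) and Psmb8 (0.93 ± 0.11) higher. The heavy chains H2-K1 (0.59 ± 0.06) and H2-D1 (0.55 ± 0.06) rose less than 2-fold and B2m (0.10 ± 0.05) did not pass. In class II 2 of 9 rose (22.2%, against 12.4% of all genes) and 0 fell. H2-Eb1 rose by 0.81 ± 0.19 and H2-Ab1 by 0.57 ± 0.17, and Cd74 stood at 0.27 ± 0.17. None of the 9 had every treated mouse above every control mouse, and H2-Ab1 lost its call with probe sets averaged (0.55). The difference between the 2 classes was not tested. Ubd, the ubiquitin-like FAT10 that interferons and TNF induce, rose by 3.10 ± 0.21, and 8 of 15 ubiquitin-related genes rose and 3 fell, Usp2 among the latter (-1.15 ± 0.33). Of the constitutive proteasome subunits 7 of 31 rose and 0 fell, Psma5 by 0.50 ± 0.09 and the others by less. Of the 2 other probe sets of Psma5 1 rose (0.48 ± 0.09) and 1 did not pass (-0.07 ± 0.31). That count was 8 with quantile normalization and 4 with arrays centred on their medians.

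**Figure D3:**
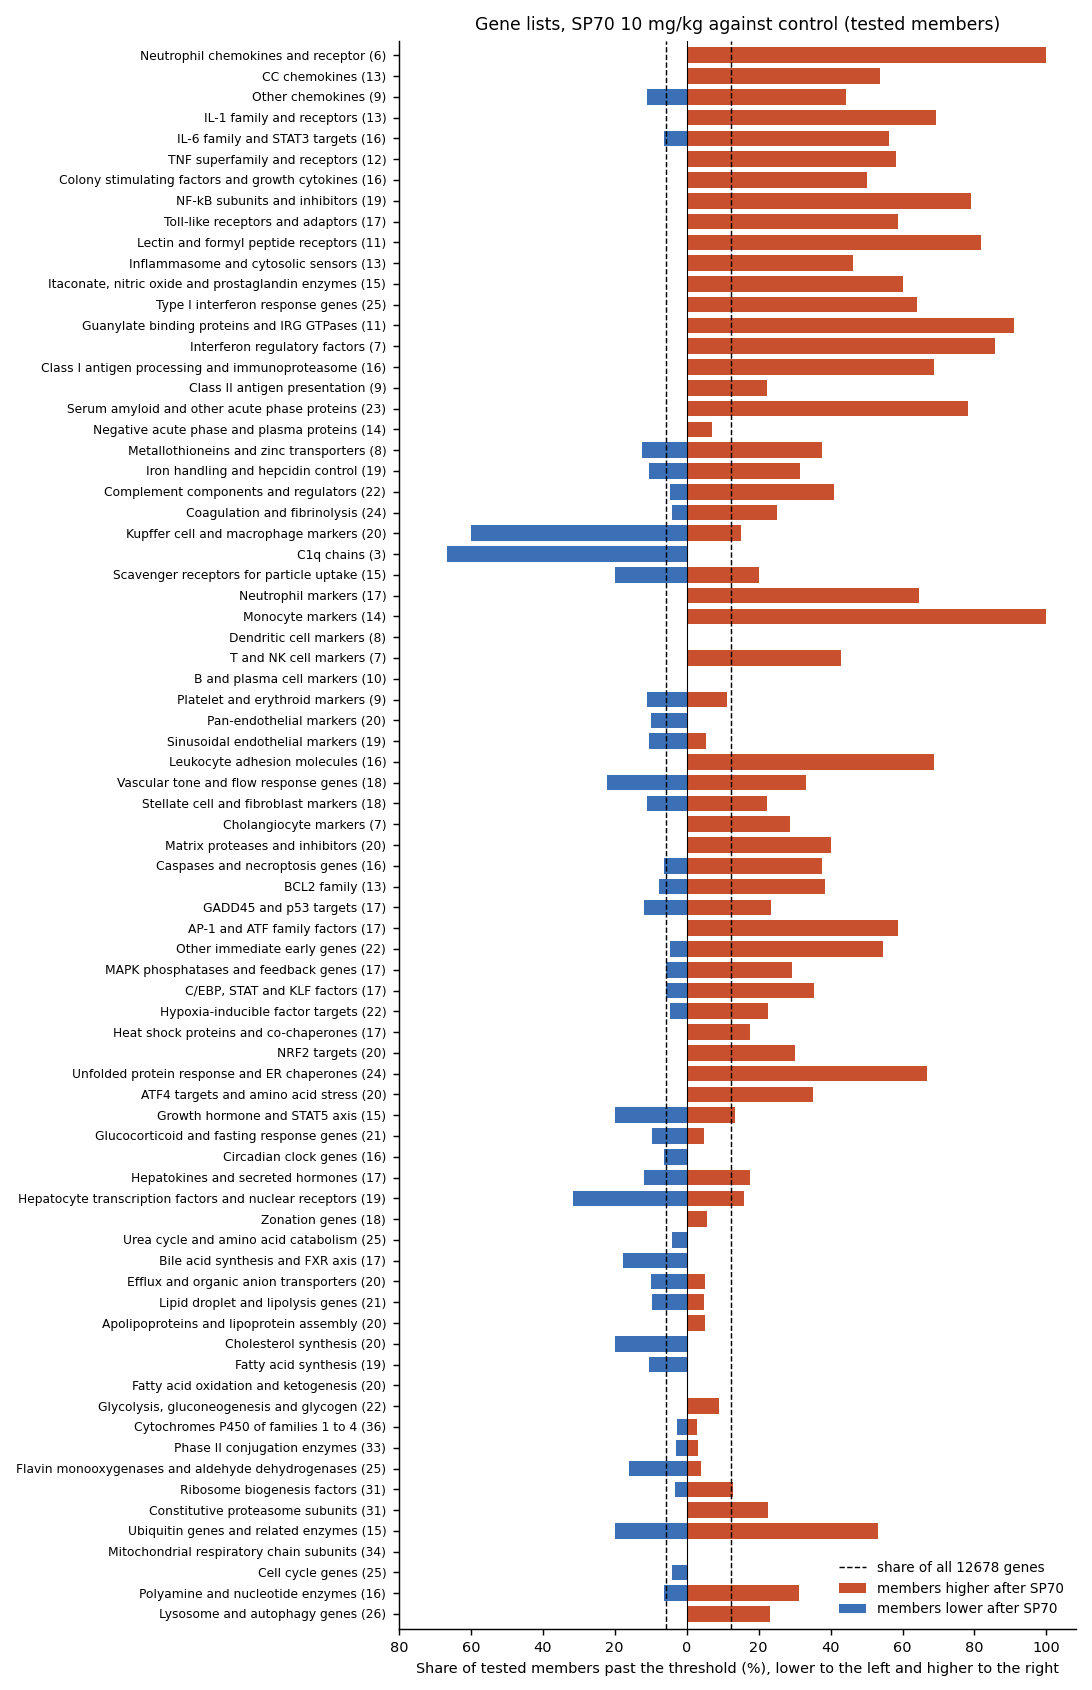
The share of each gene list's tested members that were called higher (orange, to the right) or lower (blue, to the left) after SP70 at 10 mg/kg. The number of tested members is in brackets. Dashed lines mark the shares of all 12678 genes, 12.4% higher and 5.69% lower. Lists of inflammation and interferon response lie far to the right, the Kupffer cell markers and the C1q chains to the left, and lists of hepatocyte metabolism hold few calls.

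Acute phase genes of the liver rose, unequally. Of 23 tested 18 rose and 0 fell. Saa3 read 1578, 1280, 949, 884 and 1139 in control mice and 66480, 64153, 45270, 62968 and 69969 after SP70. Lcn2, which keeps iron from bacteria, read 3897, 3254, 1394, 1209 and 1719 in control mice and 79090, 64915, 53852, 82346 and 81581 after SP70. Treated mouse 3 was the lowest of its group in both, and far above the highest control mouse. Saa3 rose 53.6-fold (5.73 ± 0.12, adjusted p = 1.11e-28, the lowest of all genes tested) and Lcn2 34.7-fold (5.11 ± 0.22).

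Saa2 rose 23.6-fold (4.55 ± 0.25) and Saa1 by 2.47 ± 0.17. These genes are near copies of each other, and their probe sets may share signal. Orm2 (4.01 ± 0.23) rose far more than Orm1 (0.58 ± 0.06), Steap4, a metal reductase, by 2.74 ± 0.12, Lrg1 by 1.04 ± 0.10, Serpina3n by 0.93 ± 0.10 and Crp by 0.90 ± 0.06. Hp (0.10 ± 0.08), Hpx (0.15 ± 0.07), Fga (0.10 ± 0.07) and Fgg (0.07 ± 0.05), which code for haptoglobin, hemopexin and fibrinogen chains, did not pass. Signals of several plasma protein genes were among the highest on the arrays, with Alb at 68202 to 81400 in control mice and 62625 to 92504 after SP70. Whether probe sets this bright still follow the amount of RNA was not tested.

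Among plasma proteins that usually fall in the acute phase none was called lower at 6 h. Of 14 tested 1 rose and 0 fell. Alb (0.07 ± 0.08), Ttr (0.08 ± 0.06) and Apoa1 (0.04 ± 0.06) did not pass. The 1 gene that rose was Serpina7, thyroxine-binding globulin. It read 2659, 2457, 2324, 2628 and 2037 in control mice and 19955, 12995, 10441, 14420 and 28541 after SP70. The groups did not overlap, and the rise was 6.72-fold (2.74 ± 0.25).

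Metal genes were among those that moved. Metallothioneins bind zinc and copper, and Mt2 (2.54 ± 0.28) and Mt1 (1.82 ± 0.23) rose together with the zinc importer Slc39a14 (1.22 ± 0.12), while the zinc exporter Slc30a1 fell (-0.37 ± 0.12). These are 3 higher and 1 lower of 8 tested. In iron handling 6 of 19 rose and 2 fell. Hepcidin, Hamp, which closes the iron exporter, read 56662, 28814, 32909, 40484 and 43868 in control mice and 80702, 69299, 75080, 78910 and 87026 after SP70. The groups did not overlap and the rise was 1.98-fold (0.98 ± 0.14). The exporter itself, Slc40a1, fell (-0.98 ± 0.18), as did Hjv, the co-receptor that sets hepcidin (-1.04 ± 0.15). Hmox1, which breaks down haem, rose 5.31-fold (2.37 ± 0.32) and the importer Slc11a2 by 1.53 ± 0.14. The hepcidin-inducing ligands Bmp2 (-0.10 ± 0.21) and Bmp6 (-0.07 ± 0.26) did not pass.

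Among complement and clotting genes calls were mostly upwards. Of the complement genes 9 of 22 rose and 1 fell. Those that rose were led by the receptor C5ar1 (at least 1.21-fold, 1.14 ± 0.26), the regulator Cd55 (0.94 ± 0.28) and factor B, Cfb (0.77 ± 0.08), and properdin, Cfp, was called lower (-1.07 ± 0.27) by its brightest probe set but not by another (0.45 ± 0.30) or by the mean of both (-0.31). Of the clotting and fibrinolysis genes 6 of 24 rose and 1 fell. Plau (at least 1.29-fold, 1.66 ± 0.51) and its receptor Plaur (1.00 ± 0.14), the protein C receptor Procr (1.45 ± 0.27) and thrombomodulin, Thbd (0.98 ± 0.21), rose, and tissue factor, F3, fell (-0.76 ± 0.25), a call lost when 1 mouse was left out. The lower shares of both lists, 4.55% and 4.17%, were under that of all genes.

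Most markers of neutrophils and monocytes rose, and most of those of Kupffer cells fell. In RNA from whole tissue, fewer cells of a type and less RNA per cell cannot be told apart. The hepatocyte markers Alb, Ttr, Apoa1, Apob, Cps1 and Cyp2e1 were among the brightest on all 10 arrays. The cholangiocyte marker Krt7 and the B cell marker Cd79a were under 165 on all 10. Of the pancreatic and intestinal markers Cpa1 and Vil1 were under 165 on all 10 and Prss2 on 8, while Cela1 (2347 to 5448) and Fabp2 (12393 to 19781) were over it on all 10. Of the neutrophil markers 11 of 17 rose and 0 fell. S100a8, a subunit of calprotectin, read 1128, 583, 345, 765 and 577 in control mice and 10733, 8876, 12348, 12393 and 9119 after SP70. All treated mice were high and the change was 16.8-fold (4.04 ± 0.23). S100a9 (4.01 ± 0.25), Hdc, which makes histamine (at least 2.49-fold, 3.29 ± 0.39), the collagenase Mmp8 (at least 2.23-fold, 2.86 ± 0.36), Csf3r (2.77 ± 0.41) and Cd177 (2.06 ± 0.42, with both groups under 165) rose. Mpo (-0.99 ± 0.52), Elane (0.77 ± 0.54), Camp (-0.50 ± 0.59), Ltf (0.33 ± 0.37) and Ngp (0.59 ± 0.25) did not pass. Of the 5 mice given SP70, all lay under 165 for Mpo and Camp, and 4 for Ltf. Elane was called higher (1.43) when treated mouse 3 was left out.

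Of the monocyte markers 14 of 14 rose, with a median of 1.57. F13a1, a clotting factor subunit of monocytes, read 110, 151, 109, 110 and 103 in control mice and 1221, 1497, 1350, 2026 and 1265 after SP70. Ccr2, the receptor of Ccl2, read 222, 215, 160, 126 and 152 in control mice and 491, 572, 578, 573 and 547 after SP70. The groups were apart for both. F13a1, under 165 in all control mice, rose at least 8.77-fold (3.51 ± 0.16), and Ccr2 rose at least 2.99-fold (1.62 ± 0.20), while of its 2 other probe sets 1 passed (1.77 ± 0.33) and 1 did not (0.53 ± 0.33). Chil3 (at least 4.83-fold, 4.71 ± 0.42), S100a4 (at least 5.24-fold, 3.80 ± 0.38), Vcan (at least 2.24-fold, 2.95 ± 0.28) and Lgals3 (2.13 ± 0.18) rose as well. Fn1 (0.23 ± 0.07) and F10 (0.31 ± 0.07), which hepatocytes also express, rose least.

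Of the Kupffer cell and macrophage markers 12 of 20 fell and 3 rose, with a median of -0.94, against 5.69% lower and a median of 0.01 over all genes. Clec4f, a lectin found on Kupffer cells and no other cells of the mouse liver, read 4136, 3845, 3055, 3955 and 3927 in control mice and 591, 1169, 1344, 507 and 1096 after SP70. Vsig4, a complement receptor that catches particles in the blood, read 6316, 4849, 3751, 5981 and 7056 in control mice and 897, 1433, 1979, 816 and 1619 after SP70. Cd163, the receptor of haemoglobin, read 1739, 1324, 1073, 1281 and 1776 in control mice and 198, 191, 217, 133 and 234 after SP70. In all 3 genes every treated mouse lay below every control mouse, and treated mouse 4 was the lowest. Clec4f fell 4.3-fold (-2.09 ± 0.47, adjusted p = 0.00141), Vsig4 4.28-fold (-2.09 ± 0.47) and Cd163 at least 7.08-fold (-2.81 ± 0.40).

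Timd4, a receptor for dead cells on resident macrophages, fell at least 2.4-fold (-2.28 ± 0.49). Folr2 (-1.35 ± 0.45), the CSF1 receptor Csf1r (-1.09 ± 0.13), Fcna (-0.90 ± 0.18), Adgre1, the F4/80 antigen (-0.80 ± 0.17), and Mertk (-0.75 ± 0.12) fell too. The 2 C1q chain genes that passed were C1qa (-1.55 ± 0.41) and C1qc (-1.41 ± 0.35), and C1qb (-1.28 ± 0.48) had an adjusted p of 0.0598. All 3 chains had treated mice entirely below control mice, and 2 other probe sets of C1qb passed (-1.07 ± 0.21 and -1.15 ± 0.30). Cd5l (-0.52 ± 0.29) did not pass. Marco, a scavenger receptor, did not pass by its brightest probe set (0.20 ± 0.55), whose signals were low in both groups, but was higher by another (2.24 ± 0.50) and by the mean of both (1.22, adjusted p = 0.0297). The macrophage genes that rose were Lyz2 (1.93 ± 0.17), Mpeg1 (1.06 ± 0.16) and Cd68 (0.55 ± 0.17), all 3 of which neutrophils or monocytes also express.

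Other genes with large falls included a macrophage protease and a lectin. Adamdec1, a protease gene of macrophages, read 1363, 1052, 888, 1280 and 1128 in control mice and 253, 236, 404, 221 and 330 after SP70, with every treated mouse below every control mouse (4.02-fold, -1.96 ± 0.33). Cd209g, a lectin gene, fell at least 2.31-fold (-2.71 ± 0.57), and Pth1r, the parathyroid hormone receptor, at least 3.62-fold (-2.10 ± 0.40). Bank1 (-1.76 ± 0.34), Mpp4 (-1.92 ± 0.28), Slc16a9 (at least 1.82-fold, -2.08 ± 0.42), Pcolce2 (at least 1.27-fold, -2.09 ± 0.51) and 1700048O20Rik were also among the 15 largest falls. The rest of the 15 are named elsewhere. These 15 are of called genes whose groups do not overlap. Tmie was called lower too (-2.63), with 3 treated mice under 165, but its groups overlapped. Of scavenger receptors that take up particles 3 of 15 rose and 3 fell. Scara5 (2.02 ± 0.33, but -0.40 ± 0.38 by another probe set, which did not pass), Olr1 (at least 1.02-fold, 1.80 ± 0.44) and Cd68 rose, Cd163, Mrc1 (-0.76 ± 0.24) and Colec12 (-0.42 ± 0.15) fell, and Cd36 (0.37 ± 0.24), Stab1 (-0.17 ± 0.14) and Stab2 (-0.13 ± 0.13) did not pass. Msr1, the receptor SR-A, did not pass by its brightest probe set (0.29 ± 0.15), but 2 of its 3 others rose (1.01 ± 0.28 and 0.84 ± 0.29).

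**Figure D4:**
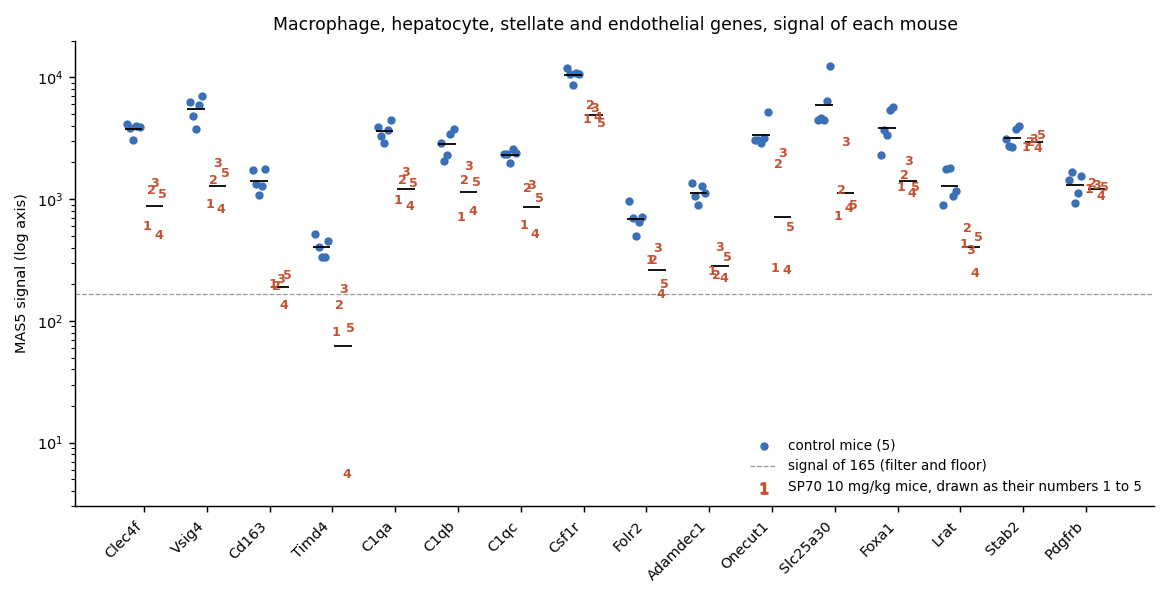
The MAS5 signal of each mouse, on a log axis, for genes of Kupffer cells and other macrophages (Clec4f to Adamdec1), hepatocytes (Onecut1, Slc25a30 and Foxa1), stellate cells (Lrat and Pdgfrb) and sinusoidal endothelium (Stab2). Blue points are the 5 control mice, orange digits the numbered mice given SP70 at 10 mg/kg, black lines geometric means, and the dashed line a signal of 165. Treated mice 1 and 4 are the lowest for Clec4f, Vsig4, the C1q chains and Onecut1. Stab2 and Pdgfrb overlap between the groups.

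The treated mice differed in how far these genes had fallen. Averaged over the 20 macrophage genes, treated mice 1 to 5 lay at -1.08, -0.58, -0.41, -1.17 and -0.76 on the log2 scale relative to the mean of the control mice. Over the 3 C1q chains they lay at -1.92, -1.08, -0.85, -2.0 and -1.22. Mice 1 and 4 were thus the lowest and mouse 3 the least changed in both. The monocyte markers, in the same mice, were more even, at 1.81, 1.98, 1.91, 2.03 and 1.77.

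Many lymphocyte markers were too dim to test. Of the T and NK cell markers 12 of 23 lay under the filter, and of the B and plasma cell markers 3 of 14. Of the T and NK cell markers 7 were tested, of which 3 rose. Gzma, granzyme A of NK cells, read 220, 32.2, 158, 196 and 228 in control mice and 397, 680, 301, 312 and 288 after SP70 and rose at least 1.94-fold (1.32 ± 0.32). Cd3d (at least 1.04-fold, 2.11 ± 0.47) and Ncr1 (at least 1.13-fold, 1.63 ± 0.47) rose too, with treated signals around 165 and control signals under it. Of the B and plasma cell markers 0 of 10 rose and 0 fell, of the dendritic cell markers 0 of 8 rose and 0 fell, and of the platelet and erythroid markers 1 of 9 rose and 1 fell. The lists without a call in limma had medians of 0.04 and 0.19, and 2 B and plasma cell and 1 dendritic cell markers had an unadjusted p under 0.05.

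Few endothelial markers passed, while adhesion molecules rose. Of the pan-endothelial markers 0 of 20 rose and 2 fell, the phosphatase Ptprb (-0.79 ± 0.15) and the VEGF receptor Kdr (-0.60 ± 0.21), and 5 fell with quantile normalization. Of the sinusoidal markers 1 of 19 rose and 2 fell. Lyve1, the hyaluronan receptor, rose (1.46 ± 0.42, and 1.41 ± 0.31 by another probe set), Ehd3 (-0.77 ± 0.14) and Mrc1 fell, and Stab2 and Clec4g (-0.35 ± 0.26) did not pass. Of the leukocyte adhesion molecules 11 of 16 rose and 0 fell. Icam1, the ligand of neutrophil integrins, read 804, 781, 604, 880 and 870 in control mice and 9934, 9638, 10237, 11144 and 9925 after SP70. Selp, P-selectin, on which leukocytes roll, read 252, 171, 254, 262 and 167 in control mice and 1239, 1262, 1000, 1699 and 1232 after SP70. Both had no overlap between groups, and they rose 13-fold (3.68 ± 0.20) and 5.84-fold (2.48 ± 0.23). Sele (at least 3.69-fold, 2.58 ± 0.39), Vcam1 (1.75 ± 0.22) and the hyaluronan receptor Cd44 (1.77 ± 0.18) rose.

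Among genes of vascular tone and flow 6 of 18 rose and 4 fell. The aggrecanase Adamts4 rose (at least 4.15-fold, 2.89 ± 0.38, and 1.09 ± 0.57 by another probe set, which did not pass), with Adamts9 (1.26 ± 0.21), Klf6 (1.26 ± 0.25) and Ednrb (0.88 ± 0.17). The receptor genes of calcitonin peptides Ramp1 (-0.70 ± 0.20) and Calcrl (-0.54 ± 0.16), Agtr1a (-0.46 ± 0.13) and Vegfa (-0.46 ± 0.16) fell. Of stellate cell and fibroblast markers 4 of 18 rose and 2 fell. Lrat, which stores vitamin A as retinyl esters in stellate cells, read 889, 1778, 1819, 1070 and 1177 in control mice and 426, 576, 377, 245 and 484 after SP70. The groups did not overlap and the fall was 3.19-fold (-1.64 ± 0.26). Colec11 fell too (-1.04 ± 0.24), and Tagln (1.18 ± 0.27), Acta2 (0.84 ± 0.20), Hgf (0.89 ± 0.22) and Ngfr (0.86 ± 0.27) rose. Collagens and general stellate markers did not pass, with Col1a1 at -0.04 ± 0.21, Dcn at 0.19 ± 0.14, Reln at -0.14 ± 0.11 and Pdgfrb at -0.11 ± 0.14. Of the cholangiocyte markers 2 of 7 rose, Sox9 (1.21 ± 0.35) and Cd24a (1.12 ± 0.17), and 0 fell.

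Matrix proteases rose in part, 8 of 20 higher and 0 lower. Mmp12, the macrophage elastase, rose at least 5.18-fold (4.00 ± 0.47), and Mmp13 (at least 3.71-fold, 2.83 ± 0.56), Mmp8 (at least 2.23-fold, 2.86 ± 0.36), the inhibitor Timp1 (2.16 ± 0.29) and the elastase inhibitor Slpi (1.26 ± 0.26) rose. Of the lysosome and autophagy genes 6 of 26 rose (23.1%, against 12.4% of all genes) and 0 fell, with a median of 0.06. Sqstm1 rose the most (0.70 ± 0.11). Centring arrays on their medians left 2 of the 26 higher, against 9.97% of all genes.

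The cell death genes that rose included killers and protectors. Of the caspase and necroptosis genes 6 of 16 rose (37.5%, against 12.4% of all genes) and 1 fell (6.25%, against 5.69%). The inhibitors of apoptosis Birc3 (2.00 ± 0.21) and Birc2 (1.66 ± 0.16) rose, as did the necroptosis genes Mlkl (1.24 ± 0.15) and Ripk3 (at least 1.2-fold, 1.17 ± 0.42), and Casp9 fell (-0.78 ± 0.14). In the BCL2 family 5 of 13 rose (38.5%) and 1 fell (7.69%). The killers Pmaip1, known as NOXA (at least 1.95-fold, 2.60 ± 0.41), Bid (1.83 ± 0.12), Bcl2l11, known as BIM (1.26 ± 0.13), and Bok (0.88 ± 0.14) rose, as did the protector Mcl1 (0.45 ± 0.13), and Bmf fell (-1.07 ± 0.25). Among GADD45 and p53 target genes 4 of 17 rose (23.5%) and 2 fell (11.8%), and 3 rose under each other scaling. Gadd45b (2.64 ± 0.31), Trp53inp1 (1.34 ± 0.22) and Btg2 (1.29 ± 0.20) were higher. Cdkn1a stood at 0.88 ± 0.55 and did not pass.

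Many immediate early genes were higher at 6 h. Of the AP-1 and ATF family 10 of 17 rose and 0 fell. Junb (1.93 ± 0.22), Maff (1.83 ± 0.40), Fosl2 (1.64 ± 0.23, but -0.29 ± 0.28 by another probe set, which did not pass), Atf3 (1.55 ± 0.40), Fos (1.28 ± 0.39) and Jun (1.23 ± 0.27) rose. Of other immediate early genes 12 of 22 rose and 1 fell. Ier3, a survival gene of NF-kB, read 38.6, 111, 16.2, 212 and 137 in control mice and 1094, 1625, 956, 1152 and 879 after SP70. Egr1 read 901, 459, 581, 241 and 330 in control mice and 2169, 2527, 1801, 2432 and 1813 after SP70. The groups did not overlap in either. Ier3 rose at least 6.43-fold (3.64 ± 0.39), Egr1 by 2.20 ± 0.27, Nr4a3 at least 1.19-fold (2.57 ± 0.41) and Egr3 at least 1.4-fold (2.20 ± 0.34, and 0.22 ± 0.56 by another probe set, which did not pass). Myc was the 1 gene of this list that fell (-1.17 ± 0.37). Of MAPK phosphatases and feedback genes 5 of 17 rose and 1 fell, Dusp5 (at least 2.25-fold, 2.91 ± 0.42) and Dusp8 (1.33 ± 0.29) leading and Spry1 (-0.54 ± 0.18) falling. Of C/EBP, STAT and KLF factors 6 of 17 rose and 1 fell. The acute phase factors Cebpd (1.67 ± 0.22) and Cebpb (0.64 ± 0.10) and Ets2 (1.25 ± 0.14) rose and Cebpa, which holds hepatocyte identity, fell (-0.42 ± 0.13).

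Genes of some stress responses rose, while the heat shock list lay near the share of all genes. Of the unfolded protein response and endoplasmic reticulum chaperone genes 16 of 24 rose and 0 fell, mostly by less than 2-fold (median 0.34). Hspa5, the chaperone BiP, read 33533, 37035, 40999, 31324 and 45971 in control mice and 58016, 56896, 46294, 53016 and 64074 after SP70. The groups did not overlap, though by little, and the change was 0.56 ± 0.11. Of its 2 other probe sets 1 rose (0.66 ± 0.13) and 1 did not pass (-0.07 ± 0.16). Dnajb9 (1.59 ± 0.10), Creld2 (1.40 ± 0.27), Syvn1 (1.14 ± 0.18) and Herpud1 (0.99 ± 0.10) rose most. With arrays centred on their medians 10 of the 24 rose. Of the ATF4 targets 7 of 20 rose and 0 fell, with Slc7a1 (1.26 ± 0.14), Slc7a5 (1.31 ± 0.38) and Ddit3, known as CHOP (1.17 ± 0.21), higher and Fgf21 (0.90 ± 0.33) not past the threshold. Asns did not pass by its brightest probe set (0.31 ± 0.29) and rose by another (1.61 ± 0.50). Of the NRF2 targets 6 of 20 rose (30%, against 12.4% of all genes) and 0 fell, with a median of 0.09. Hmox1 and the cystine importer Slc7a11 (1.39 ± 0.34, with both groups under 165) led, while the classical targets Nqo1 (0.24 ± 0.18), Gclc (-0.20 ± 0.19) and Gclm (0.06 ± 0.08) did not pass. By another probe set both were lower, Gclc at -0.44 ± 0.14 and Gclm at -0.24 ± 0.08. Of the heat shock proteins 3 of 17 rose (17.6%, against 12.4% of all genes) and 0 fell, with a median of 0.03. None of them had every treated mouse above every control mouse. Bag3 rose by 1.15 ± 0.19, and Hspa1a (0.92 ± 0.41) did not pass the threshold. Of the hypoxia-inducible factor targets 5 of 22 rose (22.7%) and 1 fell, with a median of 0.16. With quantile normalization 4 rose and 5 fell, and with arrays centred on their medians 3 fell. Hif1a (0.53 ± 0.10), Pfkfb3 (1.11 ± 0.33, but -0.22 ± 0.44 by another probe set, which did not pass), Ddit4 (1.10 ± 0.29) and Ldha (0.55 ± 0.08) rose, while Car9 (0.64 ± 0.46) and Slc2a1 (-0.28 ± 0.17) did not pass. Adm, a vasodilator, did not pass by its brightest probe set (0.92 ± 0.41) and rose by another (1.56 ± 0.50).

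Several hepatocyte transcription factors fell. Of 19 tested 6 fell (31.6%, against 5.69% of all genes) and 3 rose (15.8%, against 12.4%), or 2 without Hnf4a under each other scaling. Onecut1, known as HNF6, read 3041, 3037, 2909, 3201 and 5204 in control mice and 267, 1941, 2393, 259 and 587 after SP70. The treated mice fell into a low pair, mice 1 and 4, an intermediate mouse 5, and mice 2 and 3, which were closer to control than to the low pair. Every treated mouse was below every control mouse, and the fall was 4.73-fold (-2.21 ± 0.55, and -1.90 ± 0.43 by another probe set). The pioneer factors Foxa1 and Foxa2, which open liver chromatin, fell too. Foxa1 read 2288, 3665, 3386, 5436 and 5668 in control mice and 1240, 1571, 2035, 1103 and 1248 after SP70. Its treated mouse 3 was the highest but below the lowest control mouse. Foxa1 fell 2.76-fold (-1.46 ± 0.20) and Foxa2 2.42-fold (-1.27 ± 0.20). Nr1i3, the receptor CAR (-0.66 ± 0.17), Ahr (-0.61 ± 0.18, but 0.11 ± 0.62 by another probe set, which did not pass) and Cebpa fell, and Nr5a2 (0.87 ± 0.15), Foxa3 (0.50 ± 0.10) and Hnf4a (0.30 ± 0.10) rose. Of the 3 other probe sets of Hnf4a, 1 passed (0.38 ± 0.13) and 2 did not (0.29 ± 0.13 and 0.02 ± 0.16).

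Among hormone-related genes, insulin-like growth factor binding proteins moved in opposite directions. Igfbp1 read 7976, 13601, 9942, 1175 and 3825 in control mice and 42598, 17092, 33391, 60626 and 48657 after SP70. Igfbp3 read 2884, 3245, 1506, 2237 and 2815 in control mice and 879, 767, 1088, 672 and 1042 after SP70. Neither gene's groups overlapped, Igfbp1 rose (2.77 ± 0.42) and Igfbp3 fell (-1.47 ± 0.23). Igf1 (0.01 ± 0.05) and the growth hormone receptor Ghr (-0.14 ± 0.09) did not pass. Of the growth hormone axis 2 of 15 rose (13.3%) and 3 fell (20%). Of the glucocorticoid and fasting genes 1 of 21 rose (4.76%) and 2 fell (9.52%), Irs1 the most (-1.29 ± 0.16). Of the clock genes 0 of 16 rose and 1 fell (6.25%), Hlf (-0.50 ± 0.13). Over all genes 12.4% rose and 5.69% fell, so the clock list had no more calls than all genes in general. Of the hepatokines 3 of 17 rose (17.6%) and 2 fell (11.8%). Inhbb, the activin B subunit that can raise hepcidin, read 108, 80.8, 102, 177 and 157 in control mice and 1297, 909, 1236, 1001 and 1529 after SP70. No control mouse overlapped a treated one, and the rise was at least 7.02-fold (3.16 ± 0.34), but another probe set did not pass (0.37 ± 0.38). Adipor2 (-0.69 ± 0.13) and Angptl6 (-0.79 ± 0.15) fell. Slc25a30, a mitochondrial carrier gene, read 4431, 4664, 4430, 6443 and 12344 in control mice and 715, 1185, 2894, 836 and 885 after SP70. Control mouse 5 was the highest and treated mouse 3 the least lowered, and the fall was 5.26-fold (-2.38 ± 0.36).

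Few genes of hepatocyte metabolism were called, and how many were lower depended on the scaling of the arrays. Of 36 cytochromes P450 1 rose and 1 fell, Cyp3a13 (0.33 ± 0.10) and Cyp4f15 (-0.42 ± 0.12). Of phase II enzymes 1 of 33 rose and 1 fell, of flavin monooxygenases and aldehyde dehydrogenases 1 of 25 rose and 4 fell, Fmo2 the most (-1.05 ± 0.23). Of the urea cycle and amino acid genes 0 of 25 rose and 1 fell, of the zonation genes 1 of 18 rose and 0 fell, of fatty acid oxidation 0 of 20 rose and 0 fell, and of glucose metabolism 2 of 22 rose and 0 fell, Pfkfb3 and Pkm (0.87 ± 0.20). At an unadjusted p under 0.05 in limma 3 of the fatty acid oxidation genes and 0 of the respiratory chain subunits differed. With quantile normalization, under which 11.1% of all genes were lower, lower calls numbered 4 of 36 cytochromes P450, 3 of 33 phase II enzymes, 9 of 25 flavin monooxygenases and aldehyde dehydrogenases, 5 of 25 urea cycle and amino acid genes, 3 of 18 zonation genes and 2 of 20 fatty acid oxidation genes. Respiratory chain subunits had 0 of 34 higher and 0 lower, but with quantile normalization 10 of them were called lower, all by small amounts (median -0.04 here and -0.11 there). Of the ribosome biogenesis genes 4 of 31 rose and 1 fell, Nop58 by 1.00 ± 0.19, of the cell cycle genes 0 of 25 rose and 1 fell, and of the polyamine and nucleotide enzymes 5 of 16 rose and 1 fell, Cmpk2 (1.55 ± 0.25) and Upp1 (0.98 ± 0.23) among the former and cytidine deaminase, Cda (-1.51 ± 0.22), the latter.

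Of the lipid and bile genes that passed most fell, and at most 1 rose in each list. Of the bile acid genes 0 of 17 rose and 3 fell. Klb, the co-receptor of the gut hormone FGF15, fell (-0.81 ± 0.17), as did its receptor Fgfr4 (-0.35 ± 0.12) and Hsd3b7 (-0.24 ± 0.08). Cyp7a1, the first enzyme of bile acid synthesis, stood at -0.57 ± 0.61, and was not called. Of the efflux and organic anion transporters 1 of 20 rose, Abcb1b (at least 1.05-fold, 1.19 ± 0.27), and 2 fell, Abcg8 (-0.44 ± 0.15) and Abcc6 (-0.33 ± 0.10). Cholesterol synthesis had 0 of 20 higher and 4 lower with a median of -0.41, with Stard4 (-0.79 ± 0.21), Hsd17b7 (-0.65 ± 0.22), Sc5d (-0.54 ± 0.20) and Ebp (-0.18 ± 0.06) lower. Averaged over these 20 genes the control mice lay at -0.04, 0.75, 0.01, 0.04 and -0.77 and the treated mice at -0.33, -0.78, -0.01, -0.85 and 0.08, so the groups overlapped. Of fatty acid synthesis genes 0 of 19 rose and 2 fell, Mlxipl, known as ChREBP (-0.39 ± 0.13), and Elovl1 (-0.31 ± 0.10). Of the lipid droplet genes 1 of 21 rose and 2 fell, Dgat2 (0.97 ± 0.08) against Mgll (-0.45 ± 0.09) and Lipg (-0.90 ± 0.32). Of apolipoproteins and lipoprotein assembly 1 of 20 rose and 0 fell, the 1 being the cholesterol exporter Abca1 (0.98 ± 0.11). Lower shares were 17.6% of the bile acid genes, 10% of the transporters, 20% of cholesterol synthesis, 10.5% of fatty acid synthesis and 9.52% of the lipid droplet genes, against 5.69% of all genes. With quantile normalization 5 of 17 bile acid genes, 5 of 20 transporters, 5 of 20 cholesterol synthesis genes and 5 of 19 fatty acid synthesis genes were lower, against 11.1% of all genes.

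At the equal dose of 10 mg/kg many inflammatory genes were higher after SP70 than after the larger SP300 particles. In the direct comparison 2609 genes (20.6%) differed, of which 1322 genes (10.4%) were higher after SP70 than after SP300 and 1287 (10.2%) were lower. Ccl2 had a mean of 12.1 ± 4.16 (SD, n = 5) after SP300 against 3186 ± 740 after SP70, a difference of at least 18.9-fold (7.01 ± 0.34 in log2), since all mice given SP300 were under 165. Cxcl2 (at least 20.7-fold, 6.20 ± 0.36), Il1rn (at least 32.7-fold, 5.83 ± 0.33), Saa3 (5.79 ± 0.12) and Tlr2 (at least 45.8-fold, 5.65 ± 0.20) had the next highest log2 differences, an order that rests in part on signals under 165. Of 19 NF-kB genes 16 were higher after SP70. So were 10 of 11 guanylate binding proteins and IRG GTPases, 17 of 25 type I interferon genes and 12 of 17 neutrophil markers. These 4 counts were the same with quantile normalization.

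Downwards, Cd163 (at least 8.02-fold, -2.98 ± 0.40), Tmie (at least 2.84-fold, -2.78 ± 0.64), Vsig4 (-2.30 ± 0.47), Slc16a9 (at least 2-fold, -2.20 ± 0.42) and G0s2 (-2.10 ± 0.49) had the largest log2 differences. Of 20 macrophage markers 14 were lower after SP70 than after SP300. Sinusoidal endothelial markers, of which 2 had fallen against control, were lower than after SP300 in 12 of 19 (10 with arrays centred on their medians). Bmp2, for example, had a mean of 1824 ± 328 in control mice, 2922 ± 375 after SP300 and 1735 ± 470 after SP70. Onecut1 and Slc25a30 did not follow this pattern. Onecut1 had a mean of 3479 ± 970 in control mice, 795 ± 470 after SP300 and 1089 ± 1005 after SP70, with a difference between the particles of 0.11 ± 0.55 (adjusted p = 0.919). Slc25a30 differed by -0.42 ± 0.36 (adjusted p = 0.443). Leaving out the SP300 mouse 3 lowered the count of genes lower after SP70 to 815.

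Against the smaller SP30 particles at the same dose 3665 genes (28.9%) differed. After SP70 2984 genes (23.5%) were higher than after SP30 and 681 (5.37%) lower, and the median of all genes was 0.13. With quantile normalization the counts were 1810 (14.3%) and 1352 (10.7%). The largest log2 differences downwards were Ankrd37 (at least 4.33-fold, -3.75 ± 0.53), the vasodilator Adm (-3.14 ± 0.41), Ier3 (-3.06 ± 0.39), Cxcl2 (-2.96 ± 0.36) and Nrg4 (-2.41 ± 0.22). Hypoxia-inducible factor targets were lower after SP70 than after SP30 in 14 of 22 and higher in 1, and lower in 16 with quantile normalization. Cxcl2 had a mean of 3500 ± 827 after SP70 and of 29922 ± 14406 after SP30, while Cxcl1 differed by -0.40 ± 0.25 and Tlr2 by -0.33 ± 0.20, neither past the threshold.

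Upwards, Ntn4 (at least 2.4-fold, 3.49 ± 0.25), Sult2a2 (at least 2.2-fold, 2.97 ± 1.13), Fam167b (at least 3.42-fold, 2.53 ± 0.42), Stox2 (at least 1.68-fold, 2.37 ± 0.35) and Bmp2 (2.28 ± 0.21) differed most on the log2 scale. Sult2a2 ranged from 5.14 to 12182 among the control mice. Endothelial markers differed between the 2 particles. Of the pan-endothelial markers 14 of 20, and of the sinusoidal markers 13 of 19, were higher after SP70 than after SP30. With quantile normalization these counts were 13 and 13. This was not particular to endothelium. As deposited, 15 of 20 fatty acid oxidation genes and 20 of 34 respiratory chain subunits were higher after SP70, and 0 of either lower. Of 25 flavin monooxygenases and aldehyde dehydrogenases 16 were higher and 1 lower. Few Kupffer cell markers differed, with 2 of 20 higher and 1 lower after SP70. Clec4f had a mean of 941 ± 371 after SP70 and 721 ± 324 after SP30, a difference of 0.37 ± 0.47 (adjusted p = 0.603).

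**Figure D5:**
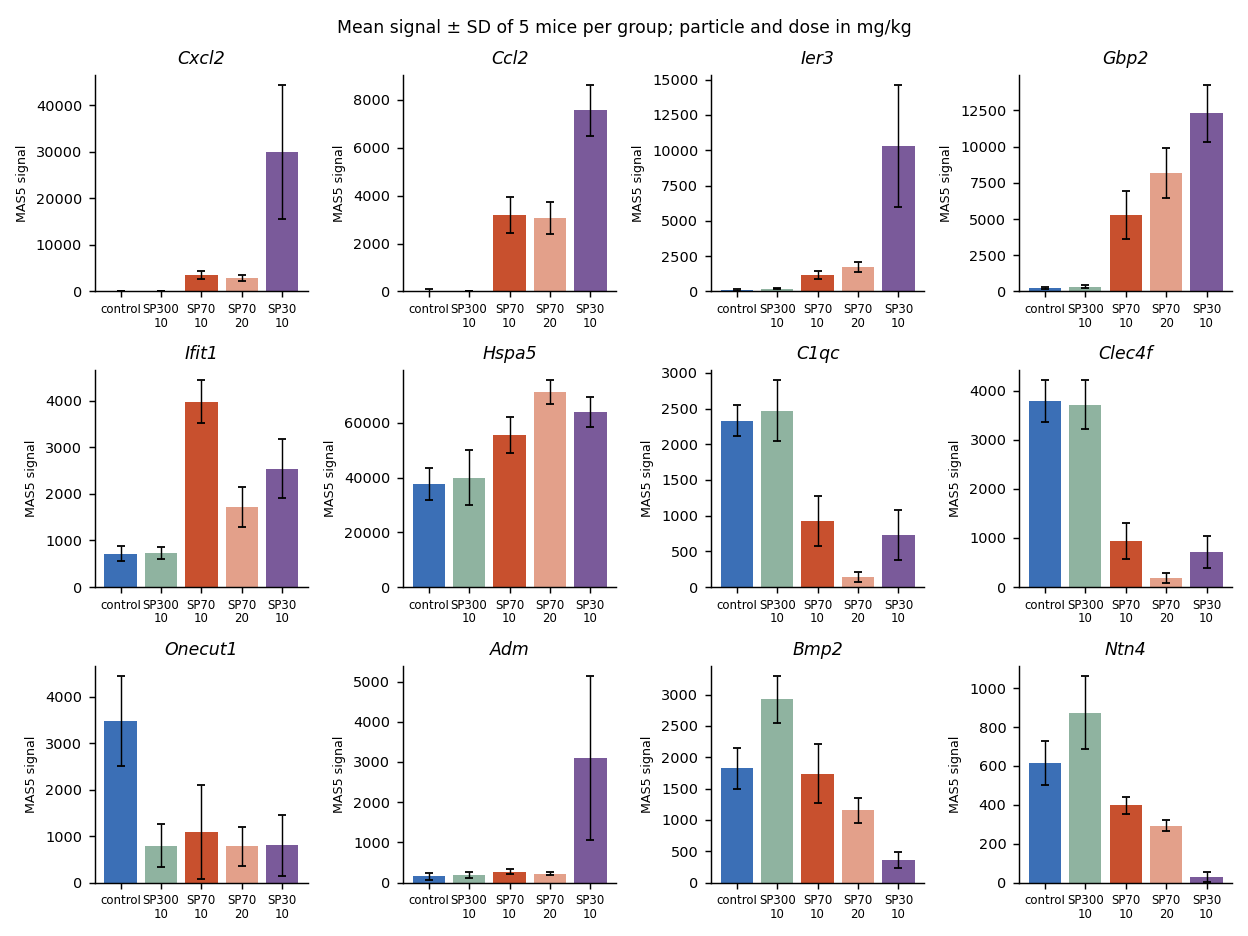
Mean MAS5 signal (bars, linear axis from 0) and SD (error bars) of 5 mice for 12 genes in 5 groups, which are control, SP300 at 10 mg/kg, SP70 at 10 and at 20 mg/kg, and SP30 at 10 mg/kg. Ifit1 is highest after SP70 at 10 mg/kg, C1qc and Clec4f are lowest after SP70 at 20 mg/kg, Onecut1 is low in all 4 treated groups, and Adm and Cxcl2 are highest after SP30.

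The higher dose of SP70 moved some genes further and others back. From 10 to 20 mg/kg 2147 genes (16.9%) changed, of which 631 genes (4.98%) were higher and 1516 (12%) lower. Of 20 Kupffer cell markers 14 were lower at 20 mg/kg and 0 higher, with Clec4f (at least 4.19-fold, -2.50 ± 0.47), C1qc (at least 5-fold, -2.79 ± 0.35) and C1qb (at least 4.2-fold, -2.57 ± 0.48) among the 5 largest log2 falls beside Ccl24 (at least 1.74-fold, -2.72 ± 0.44) and Mmp13 (at least 3.16-fold, -2.48 ± 0.56). Many type I interferon genes were lower at the higher dose, with 16 of 25 lower and 2 higher (15 and 2 with quantile normalization). Ifit1 had a mean of 3971 ± 462 at 10 mg/kg and 1714 ± 432 at 20 mg/kg, against 714 ± 158 in control mice. Of the guanylate binding proteins and IRG GTPases 1 of 11 was lower and 1 higher. Of the 24 unfolded protein response genes 13 lay above and 1 below the level at 10 mg/kg, Hspa5 from 55659 ± 6569 to 71341 ± 4238. Bhlha15 (at least 3.21-fold, 2.01 ± 0.42), A2m (at least 3.97-fold, 2.09 ± 0.33), Il1f10 (at least 1.39-fold, 1.87 ± 0.57), Six2 (at least 1.02-fold, 1.87 ± 0.49) and Map3k21 (at least 2.54-fold, 1.78 ± 0.35) were the largest log2 rises. The neutrophil chemokines and Ccl2 (-0.04 ± 0.34) did not differ past the threshold between the 2 doses.

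Probe sets of the same gene mostly moved alike. Of the genes called higher, 872 had 1609 other probe sets that passed the filter, of which 1443 had the same sign, 714 were also called higher and 4 were called lower. Of the genes called lower, 362 had 624 others, of which 532 had the same sign, 167 were also called lower and 2 were called higher. The genes with a probe set called the other way were Pde4dip, Ubfd1, Sf3b4, Pde12, Neo1 and Rdh14, named here after their values were seen. Of 158 genes named in the text that had another probe set, 8 were not called but had another that was, 7 called ones had another of the opposite sign that did not pass, and 31 had another that did not pass, with a change over 1.5 times smaller. Beside those given above, the last were Birc3, Cebpd, Csf1, Dusp8, Ednrb, Ehd3, Elovl1, Fgfr4, Fmo2, H2-Ab1, Hgf, Hsd17b7, Ifngr2, Irf5, Klf6, Lipg, Mcl1, Slc7a1, Tapbpl, Tmie, Tnfrsf1b and Vcam1.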

How the data were processed

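The deposited values are MAS5 intensity values of 45101 probe sets on 35 arrays, 1 array per mouse and 5 mice per group, and MAS5 is named by the submitters' processing notes. Its settings and scaling are not given in the sources used here, and the number of arrays limits the precision. Probe sets were named by the platform annotation, of which 34945 have 1 gene, 932 several and 9160 none. A probe set was kept above 165 on at least 5 arrays, and the one with the highest mean stood for its gene. The log2 of the signal plus 12.5, the 10th percentile of all values, went into 1 model of all 7 groups with limma 3.58.1 (R 4.3.3) (empirical Bayes with a variance trend, two-sided, Benjamini-Hochberg over 12678 genes, threshold 0.05). Adjusted p-values are from this fit, which measures the spread between mice, except where another setting is named, such as averaged probe sets. Calls of other probe sets of a gene are from a like fit of the 22660 kept probe sets with 1 gene, adjusted over these. Probe sets with several genes or none were fitted and adjusted apart. The fit was also run on data simulated from its own means and spreads, which cannot show how array scaling affects the calls.

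Named are the 15 highest and 15 lowest changes among called genes whose groups do not overlap, up to 4 genes of smallest adjusted p per list, other list members described with their values, and the 5 highest and 5 lowest of each direct comparison. The members, the 76 lists and the tests were chosen with earlier results of these data known. Of 1435 distinct listed genes 1232 were tested, 68 lay under the filter and 135 were matched to no probe set of their own in the tables used here. Replicate numbers were treated as names. Deviations of same-numbered control and SP70 mice correlated at -0.0363 to 0.0976 over 5 pairs. Other pseudocounts, filters, scalings, probe set rules, fits and single mice left out were tried.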

Additional observations from a re-analysis of the deposited data

Results flagged for a closer look

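Within a group of 5 mice, a mouse was marked where its gap to the nearest other mouse exceeded 0.71 of the range, Dixon's critical value. Gaps and ranges were taken on the log2 of the signal plus 12.5. Chance marks about 1 in 20 groups, and 34 of 774 groups (387 genes named in the text, 2 groups each) were marked. The values that follow are MAS5 signals. Among control mice the highest of the group stood apart for Birc2 in mouse 1 (1669), Chil3 in mouse 1 (68.6), F13a1 in mouse 2 (151), Il1r1 in mouse 5 (2636), Nfkbiz in mouse 1 (1563), Nr4a3 in mouse 5 (95), Onecut1 in mouse 5 (5204), Scara5 in mouse 5 (3251). The lowest control mouse stood apart for Adgre1 in mouse 3 (727), Car9 in mouse 5 (20), Clec4f in mouse 3 (3055), Cxcl3 in mouse 4 (1.13), Egr3 in mouse 1 (8.51), Gzma in mouse 2 (32.2), Igf1 in mouse 1 (37582), Irf5 in mouse 4 (236), Mpo in mouse 5 (38.7), Pmaip1 in mouse 3 (5.21), Pth1r in mouse 4 (459). After SP70 at 10 mg/kg the highest mouse stood apart for Cd74 in mouse 2 (1827), Cybb in mouse 2 (2065), Dcn in mouse 5 (21664), Il1f10 in mouse 3 (193), Rtp4 in mouse 5 (10213). The lowest treated mouse stood apart for Cebpd in mouse 2 (3862), Clec4d in mouse 5 (998), Cyp3a13 in mouse 3 (6031), Elane in mouse 3 (5.77), Fos in mouse 5 (411), Mpo in mouse 2 (31), Pkm in mouse 5 (322), S100a4 in mouse 5 (579), Saa3 in mouse 3 (45270), Tlr4 in mouse 4 (151).

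Signal outside the genes described was also found. Of 3588 probe sets that passed the filter and have no gene in the platform annotation, 257 were higher and 80 lower after SP70 than in control mice, together 9.39%. Of 616 probe sets with several genes, 64 were higher and 12 lower, together 12.3%. These probe sets were named nowhere above.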

How the results depend on the processing

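The count of genes called against control was 2299, and lay between 1897 (only the 2 groups compared) and 2721 (quantile normalization) over 11 other settings. The genes called lower numbered 721, but 1407 with quantile normalization and 1357 with arrays centred on the median of the genes tested, a setting added after seeing the data. Both hold all 721, and 1309 and 1294 of the 1578 higher. Leaving out 1 mouse gave 1895 to 2416 calls, 1327 to 1588 higher and 518 to 850 lower. Against SP300 that range was 2073 to 2748 (815 lower without SP300 mouse 3, against 1287), against SP30 3054 to 3731, and between the doses 1511 to 2208. No clear sign of pairing by number was seen (2 of 5 correlated best with their own number), but 5 pairs are few for such a check. A fit with the replicate block gave 2301 calls, and 2582, 3604 and 2117 in the direct comparisons. After SP70 against SP30, centring on array medians gave 1944 higher and 801 lower, and centring on tested genes 1543 and 1522. Between the doses, higher and lower were 947 and 1269 with quantile normalization, 436 and 1726 with array medians, and 966 and 1178 with tested genes.

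Of 313 called genes named, 254 kept their call under each of the 21 settings that tested them, among them the 15 highest and 15 lowest. A setting that left a gene out, as a stricter filter on low signal can, was not counted against that gene. Without some 1 mouse 49 lost their call: Abcc6, Abcg8, Agtr1a, Ahr, Calcrl, Cd55, Cd68, Cebpa, Colec12, Cxcl12, Cxcl3, Cyp3a13, Ebp, Elovl1, F3, Fgfr4, Fn1, Folr2, Fos, H2-Ab1, Hnf4a, Hsd17b7, Hsd3b7, Il18r1, Kdr, Lipg, Lyve1, Mcl1, Mlxipl, Mrc1, Myc, Ngfr, Pde12, Pde4dip, Pfkfb3, Plau, Pycard, Rel, Ripk3, Sc5d, Six2, Slc30a1, Slc7a5, Sox9, Spry1, Tank, Ubfd1, Usp2 and Vegfa. Another 10 lost it under another setting only: Abcb1b, Bhlha15, Gzma and Hgf with only the 2 groups compared, and Cfp, Neo1, Psma5, Rdh14, Sf3b4 and Tnfrsf1b with probe sets averaged. In turn 16 named genes without a call had one under some setting, Adm, Asns, C1qb, Marco and Msr1 with probe sets averaged. Averaging probe sets turned Neo1 (0.17), Pde12 (-0.01), Rdh14 (0.03) and Sf3b4 (-0.03), genes with contrary probe sets. Of 152 counts of list members 72 moved by over 1.5 times somewhere, 23 with quantile normalization. The causes were not tested. Signals under 165 limit folds to bounds, and whether the brightest probe sets respond fully is unknown.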

Other observations

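Among called genes in none of the 76 lists, which number 1873, several had log2 changes as large as the listed ones and were chosen after their values were seen. Rhbdf2, which helps release TNF from the cell surface, rose by 3.60 ± 0.37. The chitinase-like gene Chil1 rose at least 3.32-fold (3.47 ± 0.31), the chemokine-binding receptor gene Ccrl2 by 3.32 ± 0.23 and the chemokine receptor Ccr1 at least 2.45-fold (2.74 ± 0.34). Akap12, a scaffold of protein kinase A, rose by 3.39 ± 0.24, the glycoprotein gene Olfm4, found in neutrophils, at least 2.32-fold (3.38 ± 0.38), and the glucose transporter gene Slc2a6 at least 1.12-fold (2.90 ± 0.44). Rgs16, which ends G protein signals, rose by 2.78 ± 0.52, and Plek, a protein kinase C substrate of platelets and leukocytes, by 2.72 ± 0.17.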
